A study of Mus musculus with 18 samples.

Results

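Retinas of mice given 1 intravitreal injection of dexamethasone were compared between day 30 and day 7 after the injection, drug-treated eye against drug-treated eye, so that no vehicle array enters the difference. The comparison uses 6 of the 18 arrays of the study, chosen by their titles: 3 of retina taken at day 30 after dexamethasone (DEX in the labels) and 3 taken at day 7. All 18 arrays are Affymetrix mouse arrays of retina from male C57BL6/J mice, described as 2 months old, and each is labelled a biological replicate of its group. The other groups are retina after BSS, the control injection, and after triamcinolone (TAA in the labels), with 3 arrays each at day 7 and at day 30. They serve here for the estimate of the spread and as a measure of what the same interval did without dexamethasone. The dose is not given in the sources used here. Animals taken at day 30 had also lived longer after the injection, and age and time since the injection cannot be told apart. All probe sets that name exactly 1 gene were used, 34945 of 45101, and they represent 18193 genes.

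Dexamethasone is a synthetic glucocorticoid that is injected into the eye against macular oedema and inflammation. It binds the glucocorticoid receptor in the cell, which then moves to the nucleus, switches on its own target genes and restrains inflammatory transcription factors. In the retina the cells that answer injury first are the Müller glia and astrocytes, which raise intermediate filaments and acute phase proteins, and the microglia, the resident macrophages. Cytokines of the interleukin-6 family drive the glial response through the transcription factor STAT3, and interferons drive antiviral and antigen presentation genes through related factors. An intravitreal injection is itself an injury to the eye.

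The deposited values are relative log2 values: each probe set was centred on the median of the 18 arrays, so 0 is the median array and no value is an expression level. Whether retinal markers were present at the level of a retina could therefore not be read from the values. Each log2 difference is day 30 minus day 7, with the SE that limma estimates (n = 3 arrays per group), and a gene is said to have risen or fallen where its p-value adjusted over all 18193 genes was under 0.05. That SE pools the spread within all 6 groups, so arrays of the other treatments can widen it. In bulk tissue, fewer cells of a type and less RNA per cell cannot be told apart.

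One of the 6 arrays stood apart from its group. DEX day 30 replicates 1 and 2 correlated with each other at 0.69 over all probe sets used, and replicate 3 correlated with them at -0.08 and -0.11. The best match of replicate 3 among the arrays of the other treatments was a BSS day 30 array (replicate 2, 0.40). The best match of DEX day 30 replicates 1 and 2 was TAA day 7 replicate 2, at 0.37 and 0.45. The day 7 arrays correlated with each other at 0.18 to 0.46. The Actb control probe sets at the 3' and 5' ends, each taken relative to its own median array, differed by 0.14 on DEX day 30 replicate 3 and by -0.09 to 0.12 on the other 5 DEX arrays. For Gapdh this relative difference was highest on DEX day 7 replicate 2 (0.28). The part of these values in the results below was not tested, and results that rest on DEX day 30 replicate 3 are given with and without it.

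Between day 7 and day 30 after dexamethasone, 479 of 18193 genes (2.63%) passed, of which 371 (2.04%) fell and 108 (0.594%) rose. Before adjustment, 3651 genes (20.1%) had a p under 0.05. Over all genes, 9762 were lower and 8431 higher at day 30. The genes that fell included glial, leukocyte, matrix and synaptic genes, led by Gfap, the intermediate filament of astrocytes and reactive Müller glia. Those that rose included the heat shock genes Hspa1b and Hsp90aa1 and the mitochondrial carrier Slc25a5. Among the genes that passed, the size of the difference ran from 0.35 to 1.79 with a median of 0.61. The arrays of the 2 days did not overlap for 478 of the genes that passed, against 26.7% of all genes (18.9% lower and 7.82% higher at day 30). The exception was Cgas, which encodes the cytosolic DNA sensor and rose by 0.63 ± 0.15.

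The number of calls depended strongly on single arrays, as the bar chart of calls by array left out shows. Without DEX day 30 replicate 3, 1274 of 18193 genes passed, 512 of them higher and 762 lower at day 30. Calls of list members without this array, given below, stand against these totals. Without DEX day 7 replicate 3, 300 passed. Without DEX day 7 replicate 1 only 1 gene passed, without DEX day 7 replicate 2 there were 8, without DEX day 30 replicate 1 there were 3 and without DEX day 30 replicate 2 there were 5. Of the 479 genes, 425 were also called without DEX day 30 replicate 3. None of the called genes named below passed in more than 3 of the 6 fits. Most genes were named by a fixed rule; 37 were chosen after their values were seen, among them Serpina3n, Csf1r, Ly6e and Slc25a5. A fit on the 6 DEX arrays alone called 89 genes, 65 of them among the 479. Of the 479 genes, 290 had more than 1 probe set. All their probe sets had the same sign in 158, and in 45 the probe set that was kept stood alone in its sign.

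**Figure D1:**
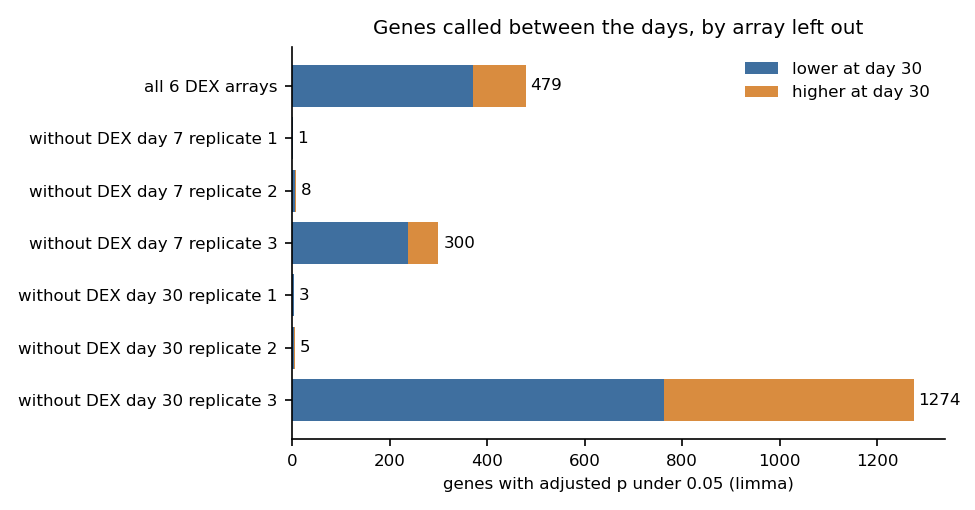
Number of genes called between DEX day 30 and DEX day 7 (limma, adjusted p under 0.05) with all 6 DEX arrays and with each left out in turn, split into genes lower (blue) and higher (orange) at day 30. The count is 479 with all arrays, 1274 without DEX day 30 replicate 3, and between 1 and 8 without any of the replicates numbered 1 and 2.

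Genes of reactive gliosis were lower at day 30 in every member measured. Of 19 members, 2 fell (Gfap and Stat3), where 2.04% of all genes fell, and 0 rose. All 19 had negative differences, with a median of -0.78 against -0.02 over all genes. The arrays of the 2 days did not overlap for 9 of the 19, all lower at day 30, where 18.9% of all genes did so in that direction. Gfap was at 0.77, 0.41 and 0.35 on the 3 day 7 arrays and at -1.32, -1.59 and -0.93 on the 3 day 30 arrays. All day 30 values were thus below all day 7 values, and Gfap fell by 1.79 ± 0.40, which is 3.46-fold (adjusted p = 0.0310). Its other probe sets were lower as well, down to a smallest difference of -0.46. Stat3, the transcription factor of interleukin-6 type cytokines, was at 0.75, 0.33 and 0.35 at day 7 and at -0.45, -0.41 and -0.31 at day 30. It fell by 0.87 ± 0.21 (adjusted p = 0.0376), with 3 of its 4 probe sets lower and 1 higher (0.27). Over the 6 leave-one-out fits Gfap stayed between -1.96 and -1.63 and Stat3 between -0.94 and -0.73. Both were called only without DEX day 30 replicate 3.

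Other gliosis genes had large differences that did not pass. Serpina3n, an acute phase protease inhibitor of reactive glia, was at 0.51, 0.95 and 0.48 at day 7 and at -2.35, -2.20 and -0.77 at day 30. The difference of -2.42 ± 0.78 was the most negative of all genes tested (adjusted p = 0.0934), and it was -2.92 and passed without DEX day 30 replicate 3. Edn2, an endothelin that injured photoreceptors release, was at 1.80, 1.65 and 1.70 at day 7. At day 30 it was at -1.85 and -1.51 on replicates 1 and 2 and at 1.35 on replicate 3, which therefore lay near the day 7 arrays. Lcn2, the iron-binding lipocalin, showed the same split, with -1.72 and -1.36 on day 30 replicates 1 and 2 and 1.52 on replicate 3. The interleukin-6 family receptor subunit Osmr (-0.93 ± 0.37), the ferroxidase Cp (-0.89 ± 0.43), the protease inhibitor A2m (-0.94 ± 0.53) and the hyaluronan receptor Cd44 (-0.61 ± 0.38) did not overlap between the days and did not pass. Over the list, the median was 0.51, 0.41 and 0.29 on the day 7 arrays and -0.46, -0.41 and 0.14 on the day 30 arrays. Replicate 3 of day 30 was thus below the day 7 arrays and above its group mates, and without it the median difference was -0.93 and 7 members were called, all lower: Gfap, Stat3, Serpina3n, Edn2, the growth factor Fgf2, the filament Nes and the transcription factor Cebpd. The same fit called 762 of 18193 genes lower.

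**Figure D2:**
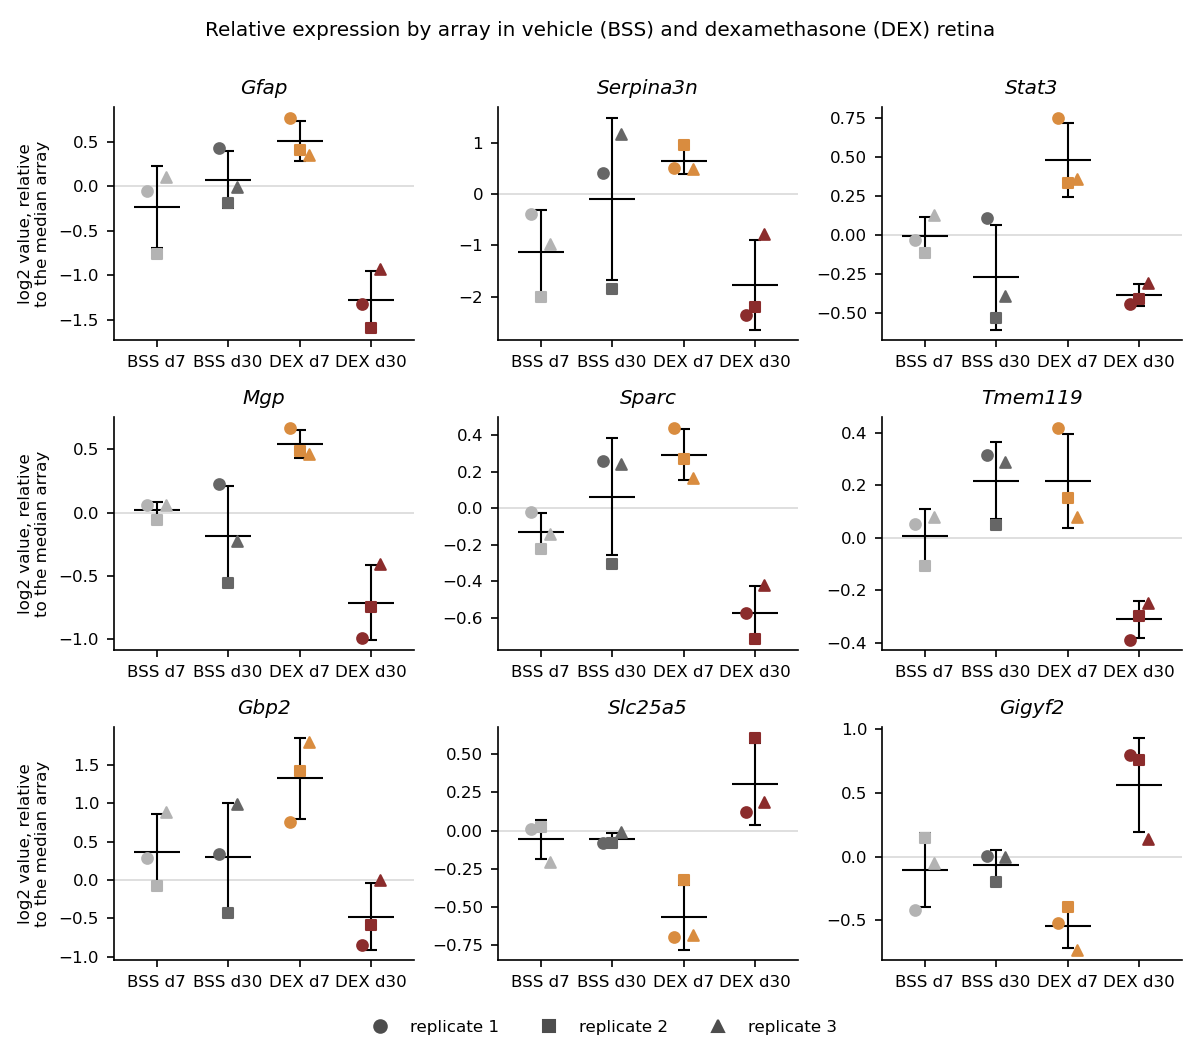
Relative log2 value (0 is the median of the 18 arrays) of 9 genes on each array of retina after BSS and after DEX at day 7 and day 30. Symbols are replicates, horizontal bars the group means and error bars the SD (n = 3); Gfap, Serpina3n, Stat3, Mgp, Sparc, Tmem119 and Gbp2 are lower on all 3 DEX day 30 arrays than on all 3 DEX day 7 arrays, and Slc25a5 and Gigyf2 are higher.

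Because STAT3 acts on many of these genes, the promoters of the list were read for the letters TTCNNNGAA, the core to which STAT factors bind and which reads the same on both strands. The windows are those of RefSeq (GRCm38.p6), from 250 bases before to 30 bases after each gene's start. Of the 17 gliosis genes with a window, 3 held a match (17.6%): Gfap, Socs3, the feedback inhibitor of this pathway, and Steap4, a metalloreductase. A match was present for 9.04% of the 27025 genes with a window, and for 6.73% of the 297 matched genes that fell. The 3 windows are shown because they belong to the list with the lowest median; capitals mark the match, which begins at base -2 in Gfap, -154 in Socs3 and -116 in Steap4 relative to the start. A match is a description of letters and not a bound site.
Gfap, chr11:102897171-102897450, minus strand: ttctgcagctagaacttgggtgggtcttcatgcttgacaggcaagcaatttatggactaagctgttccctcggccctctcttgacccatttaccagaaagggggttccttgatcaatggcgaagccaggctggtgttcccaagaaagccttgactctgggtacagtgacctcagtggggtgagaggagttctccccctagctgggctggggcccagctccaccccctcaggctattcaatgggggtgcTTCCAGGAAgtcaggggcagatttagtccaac
Socs3, chr11:117969337-117969616, minus strand: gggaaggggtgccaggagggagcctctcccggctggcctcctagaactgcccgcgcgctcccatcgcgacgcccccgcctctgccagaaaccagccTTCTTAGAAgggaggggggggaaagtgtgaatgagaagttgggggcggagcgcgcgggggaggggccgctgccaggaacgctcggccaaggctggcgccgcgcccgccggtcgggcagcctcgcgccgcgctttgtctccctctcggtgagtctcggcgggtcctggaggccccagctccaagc
Steap4, chr5:7960222-7960501, plus strand: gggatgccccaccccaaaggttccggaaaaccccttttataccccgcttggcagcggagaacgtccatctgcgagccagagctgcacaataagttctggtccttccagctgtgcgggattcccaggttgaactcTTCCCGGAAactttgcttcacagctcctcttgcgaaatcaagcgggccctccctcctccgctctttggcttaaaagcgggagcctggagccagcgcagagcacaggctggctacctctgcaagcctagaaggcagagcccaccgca
Of these 3 genes only Gfap passed. Socs3 was at 0.64, 1.02 and 0.28 at day 7 and at -0.46, -0.02 and 0.36 at day 30, with overlapping groups (-0.68 ± 0.47). Steap4 ranged from 0.11 to 1.61 at day 7 and from -0.83 to 1.84 at day 30 (-0.37 ± 0.87), and its sign turned when DEX day 7 replicate 2 (0.10) or DEX day 30 replicate 1 (0.19) was left out.

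Microglia and leukocyte genes were lower at day 30 in all 20 measured members, with a median difference of -0.52. Of the 20 members 1 fell, against 2.04% of all genes: Tmem119, a surface marker of resident microglia. It was at 0.42, 0.15 and 0.08 at day 7 and at -0.39, -0.30 and -0.25 at day 30, without overlap (-0.53 ± 0.13, adjusted p = 0.0376). The colony stimulating factor receptor Csf1r (-1.07 ± 0.30), the fractalkine receptor Cx3cr1 (-0.68 ± 0.29) and the purinergic receptor P2ry12 (-0.59 ± 0.21) did not overlap between the days and did not pass (adjusted p = 0.0635, 0.195 and 0.121). The second probe set of Cx3cr1 was at 0.10. DEX day 30 replicate 3 lay apart here too. The list's median was 0.55, 0.40 and 0.07 on the day 7 arrays, -0.37 and -0.36 on day 30 replicates 1 and 2, and 0.19 on replicate 3. The lysosomal marker Cd68 was at -0.62 and -0.80 on the first pair and at 1.04 on replicate 3. Without that array the median was -0.65 and 5 members were called lower, Tmem119, Csf1r, the endotoxin co-receptor Cd14, the signalling adaptor Tyrobp and the lysosomal membrane gene Laptm5. Of all 18193 genes, 762 were called lower in that fit.

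Outside the lists, 2 leukocyte genes were among the genes of largest fall. Cd52, a surface glycopeptide of lymphocytes and macrophages, fell by 1.04 ± 0.25, from 0.57, 0.69 and 0.25 to -0.77, -0.70 and -0.14. Myo1g, a class I myosin of blood cells, fell by 1.23 ± 0.21, from 0.88, 0.78 and 0.29 to -0.62, -0.65 and -0.49. Both were without overlap between the days, and Myo1g was also at -0.54 in the vehicle eyes over the same interval. Complement genes were lower in 11 of 12 members with a median of -0.19, and none passed. The components of C1q, which microglia produce, had the largest differences: C1qb was at 1.01, 0.78 and 0.33 at day 7 and at -1.40, -1.56 and -0.03 at day 30 (-1.70 ± 0.56, adjusted p = 0.101), and C1qc differed by -1.60 ± 0.53 (adjusted p = 0.101). Without DEX day 30 replicate 3 both passed, at -2.18 and -2.11.

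Interferon and antigen presentation genes were lower in 23 of 24 members, with a median of -0.63, and none passed with all 6 arrays. The days did not overlap for 15 of the 24, all lower at day 30, where 18.9% of all genes did so. Ifit1, an antiviral protein that binds foreign RNA, was at 0.62, 1.48 and 2.30 at day 7 and at -0.50, -0.51 and -0.31 at day 30. The day 30 arrays lay close together and the day 7 arrays were spread. The difference of -1.91 ± 0.53 had an adjusted p of 0.0621. Its SE is pooled over all 6 groups and also holds TAA day 7 replicate 2, at 2.02 against -0.62 and 0.03 on its mates. Gbp2, an interferon-induced GTPase, was at 0.75, 1.42 and 1.80 at day 7 and at -0.85, -0.59 and 0.00 at day 30 (-1.80 ± 0.48, adjusted p = 0.0541). Ifit3, a partner of Ifit1, differed by -1.30 ± 0.44 (adjusted p = 0.109). DEX day 30 replicate 3 lay below all 3 day 7 arrays in the list's median (-0.03 against 0.20, 0.48 and 0.38) and above its mates (-0.24 and -0.31), and without it the median was -0.73 and 1 member was called, Gbp2 (-2.04). That fit called 762 of 18193 genes lower. Ly6e, an interferon-inducible membrane gene that was chosen after its values were seen, fell by 0.99 ± 0.21, from 0.38, 0.55 and 0.22 to -0.74, -0.70 and -0.38; the second of its probe sets was at 0.01.

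The promoters of the interferon list were read for letters as well. The interferon-stimulated response element was searched as TTTC, any 2 bases and TTTC again, on either strand, and matches were counted whether or not they shared bases with another motif. It was found for 8 of the 21 list members with a window (38.1%), namely B2m, Gbp2, Gbp3, Ifit1, Ifit3, Oas1a, Rsad2 and Stat2, and for 3.8% of all genes with a window. Among genes that fell the share was 2.36%. The list was chosen as interferon genes, so its share describes that choice and not a change between the days. The windows of the 3 members with a match and the most negative differences follow, with the matches in capitals; they begin at bases -104 and -85 in Ifit1, -156 and -122 in Ifit3 and -59 in Gbp2.
Ifit1, chr19:34640639-34640918, plus strand: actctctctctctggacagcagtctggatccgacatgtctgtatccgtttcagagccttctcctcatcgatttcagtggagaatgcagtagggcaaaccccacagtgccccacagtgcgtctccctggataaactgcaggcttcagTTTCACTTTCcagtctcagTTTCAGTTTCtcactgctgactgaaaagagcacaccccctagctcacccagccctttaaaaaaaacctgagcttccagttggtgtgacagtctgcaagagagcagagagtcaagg
Ifit3, chr19:34583279-34583558, plus strand: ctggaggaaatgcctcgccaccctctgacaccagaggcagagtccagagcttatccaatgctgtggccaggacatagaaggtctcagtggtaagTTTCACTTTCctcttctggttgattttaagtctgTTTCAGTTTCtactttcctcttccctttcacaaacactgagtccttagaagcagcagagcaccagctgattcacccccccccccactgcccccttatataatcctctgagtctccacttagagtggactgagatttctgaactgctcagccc
Gbp2, chr3:142620413-142620692, plus strand: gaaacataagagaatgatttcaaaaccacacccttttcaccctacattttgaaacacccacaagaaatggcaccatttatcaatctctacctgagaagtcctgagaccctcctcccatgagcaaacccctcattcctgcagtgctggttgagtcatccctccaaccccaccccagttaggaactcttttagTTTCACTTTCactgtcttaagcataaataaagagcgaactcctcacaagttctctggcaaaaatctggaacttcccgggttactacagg
Of the other members with a match, Gbp3 was at -0.82 ± 0.56 without overlap and Rsad2 at -0.82 ± 0.44 with overlap, and neither passed. Rsad2 rested on DEX day 7 replicate 3 (1.85, against -0.26 and 0.73 on its mates) and was at -0.28 without it.

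**Figure D3:**
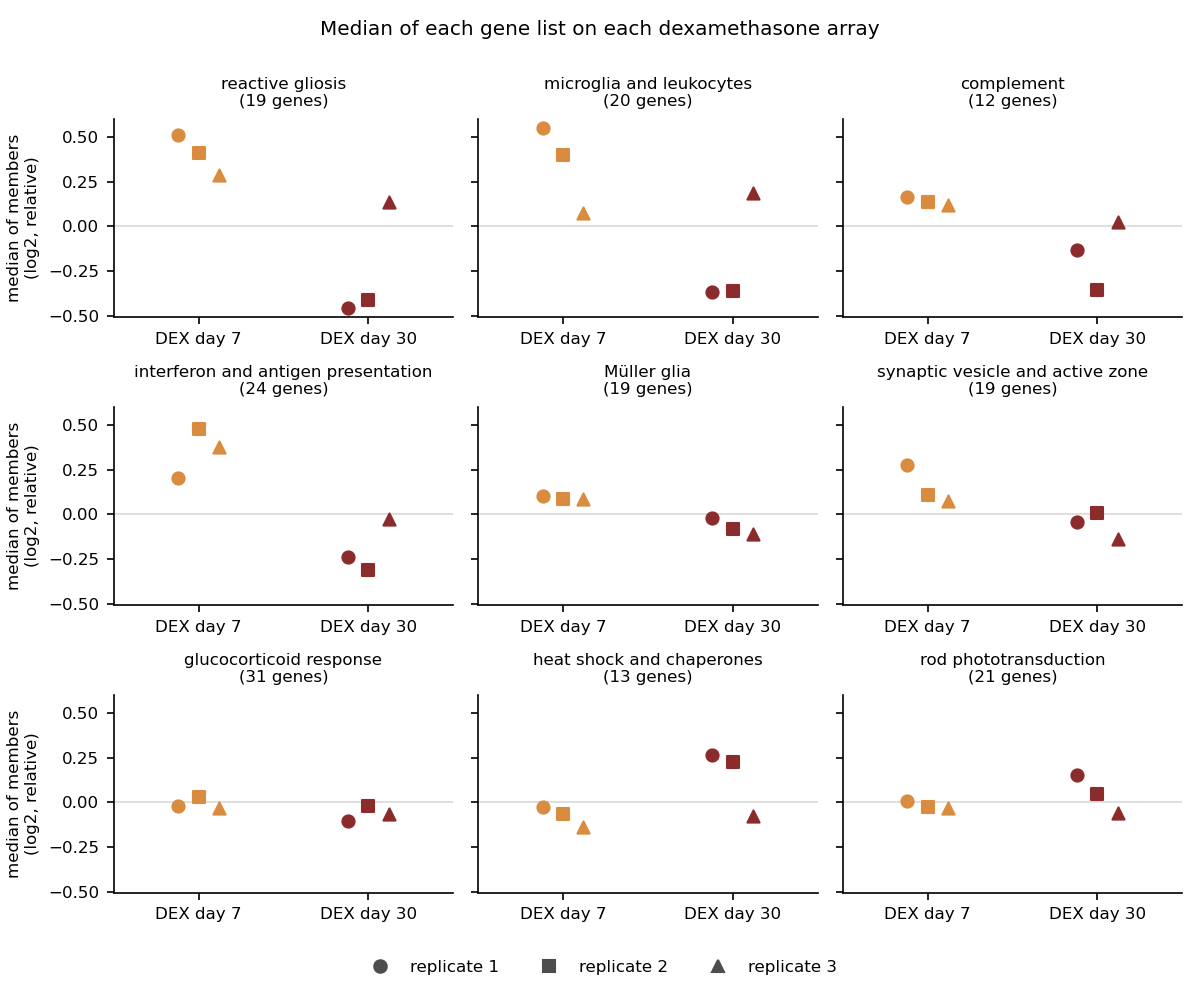
Median relative log2 value of the members of 9 gene lists on each of the 6 DEX arrays, with symbols for replicates. In reactive gliosis, microglia and complement genes, DEX day 30 replicate 3 (triangle) lies above its 2 group mates; in microglia genes it also lies above 1 day 7 array (0.19 against 0.07), and in gliosis, complement, Müller glia and synaptic genes all 3 day 30 arrays lie below all 3 day 7 arrays.

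Marker genes of Müller glia did not move as 1 block. The Müller glia list, which shares the intermediate filament gene Vim with the gliosis list, had a median of -0.26 over 19 members. Of these, 15 were lower and none passed. Its median was 0.11, 0.08 and 0.08 on the day 7 arrays and -0.02, -0.08 and -0.11 on the day 30 arrays, so that here replicate 3 went with its group. Aqp4, the water channel of glial endfeet, was higher at day 30, at 0.73, 0.93 and 0.26 against -0.20, -0.05 and -0.32 (0.83 ± 0.27, adjusted p = 0.0982), and it passed without DEX day 30 replicate 3 (1.02), as did the transcription factor Sox2. Its partner channel Kcnj10, which carries potassium out of the glia, was at -0.12 ± 0.18, and its sign turned without DEX day 30 replicate 3 (0.02). Car14, a membrane carbonic anhydrase, was lower on all 3 day 30 arrays than on all day 7 arrays (-0.31 ± 0.12, adjusted p = 0.158). Glial genes outside the list moved in opposite directions. Fabp7, the brain fatty acid-binding protein of glial precursors, rose by 1.07 ± 0.23, from -0.33, -0.43 and -0.44 to 0.76, 0.96 and 0.30, and was also higher over time after BSS (0.69 ± 0.23) and TAA (0.76). Nfia, a transcription factor of glial development, fell by 0.999 ± 0.19, from 0.64, 0.94 and 0.42 to -0.33, -0.38 and -0.29. It was at 0.19 after BSS, and 5 of its 6 probe sets were lower.

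Matrix and vessel genes were mostly lower as well. Of 28 collagen and matrix genes, 2 fell, against 2.04% of all genes, and 22 were lower, against 9762 of all 18193. The list's median was -0.21. Mgp, the matrix Gla protein that prevents calcification, was at 0.67, 0.49 and 0.47 at day 7 and at -0.99, -0.74 and -0.40 at day 30, and fell by 1.25 ± 0.22 (2.38-fold, adjusted p = 0.0163). Sparc, a collagen-binding glycoprotein, was at 0.44, 0.27 and 0.17 and then at -0.58, -0.72 and -0.42, and fell by 0.87 ± 0.17 (adjusted p = 0.0255), with 2 of 3 probe sets lower. After BSS the same interval gave -0.20 for Mgp and 0.19 for Sparc. After TAA it gave -1.23 for Mgp and -0.60 for Sparc, so both were lower over time there too. Neither overlapped between the days, and each was called in 2 of the 6 leave-one-out fits. Col19a1, a minor collagen chain outside the list, fell by 1.07 ± 0.18, from 0.85, 0.67 and 0.59 to -0.56, -0.31 and -0.22. It fell after BSS as well (-1.26).

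Among 17 endothelial genes (median -0.17), 12 were lower and 1 fell, where 2.04% of all genes fell. The gene that fell was Slco1a4, an organic anion transporter of barrier vessels. It was at 0.18, 0.06 and 0.27 at day 7 and at -0.29, -0.39 and -0.27 at day 30 (-0.49 ± 0.11, adjusted p = 0.0297). Pericyte and smooth muscle genes were lower in 10 of 12 members with a median of -0.26, and none passed; the channel subunit Abcc9 was at -0.53 ± 0.17. Without DEX day 30 replicate 3, 3 endothelial genes (Slco1a4, Vwf and Plvap) and 1 pericyte gene (Tagln) were called lower, as were 762 of all 18193 genes. Vegfa, the permeability and growth factor that steroid injections are meant to restrain, was at -0.19, 0.00 and 0.04 at day 7 and at 0.10, 0.00 and -0.19 at day 30. Its difference was 0.02 ± 0.15 with a 95% interval of -0.29 to 0.32, and its sign turned without DEX day 7 replicate 1 (-0.05) or DEX day 30 replicate 1 (-0.05) and as a mean of its probe sets. Of the 16 VEGF and hypoxia genes (median -0.07), 0 passed; Angpt2, which destabilises vessels, was at 0.31 ± 0.13 and the mitophagy receptor Bnip3 at 0.29 ± 0.13, and both passed without DEX day 30 replicate 3 (0.45 and 0.43).

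**Figure D4:**
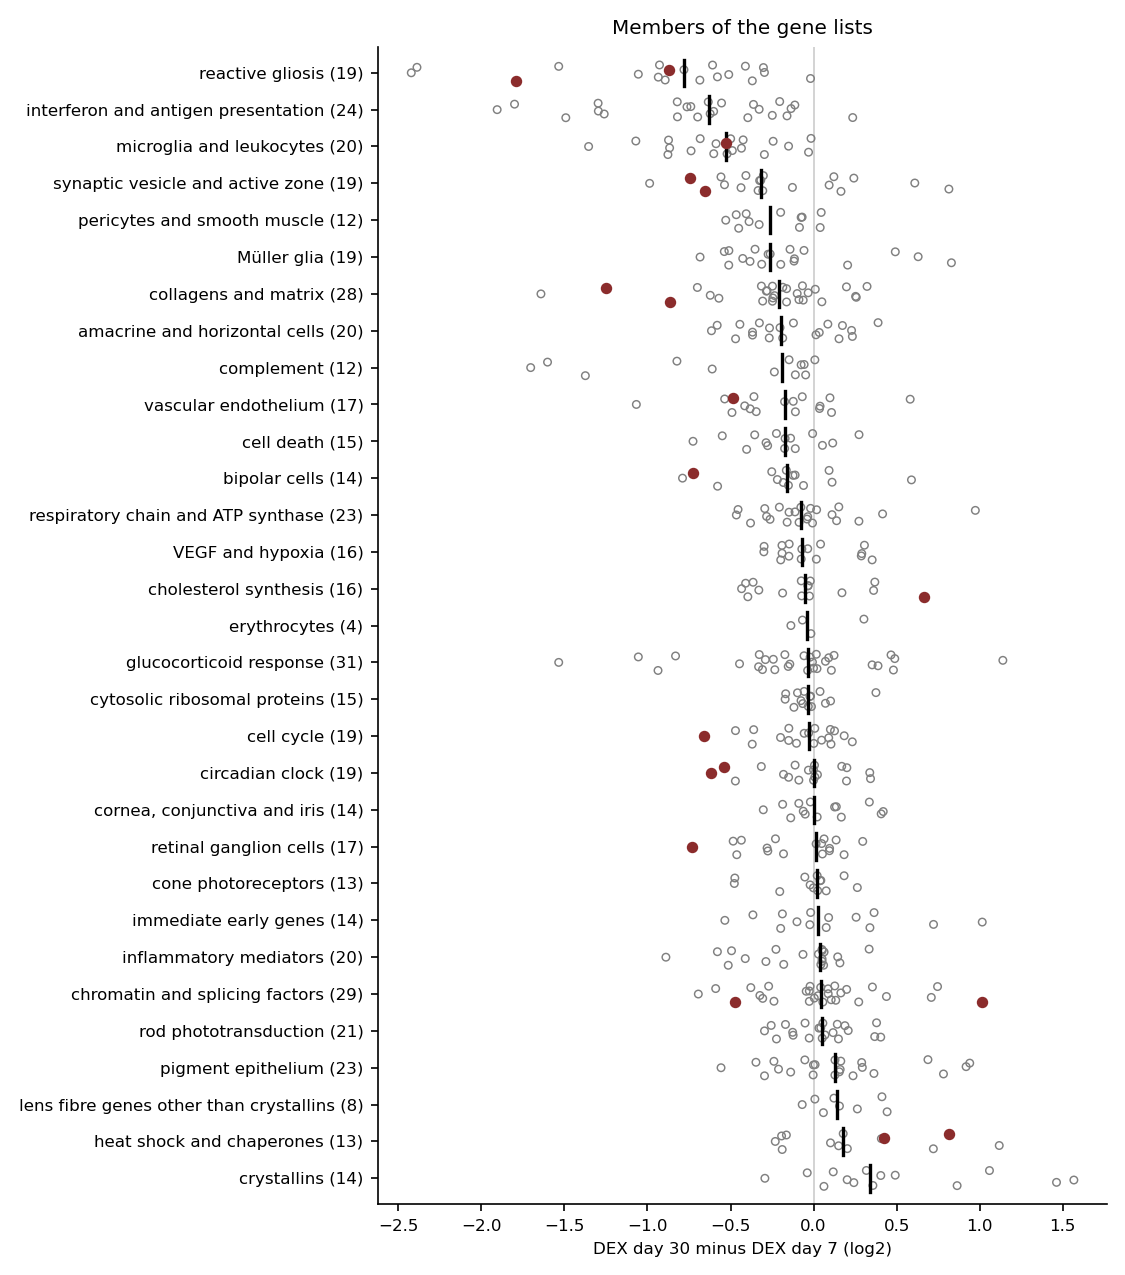
Difference between DEX day 30 and DEX day 7 (log2) for every measured member of the 31 gene lists, with the number of members in brackets and a black bar at each list's median. Filled red points passed (limma, adjusted p under 0.05); the gliosis, interferon and microglia lists have the lowest medians (-0.78, -0.63 and -0.52).

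Targets of the glucocorticoid receptor showed no common direction. None of 31 measured members passed, 12 were higher and 19 lower, and the median of -0.04 was close to that of all genes. Fkbp5, the co-chaperone that is among the most responsive steroid targets, was at 0.04, 0.19 and 0.13 at day 7 and at -0.10, -0.25 and -0.21 at day 30. The days did not overlap, and the difference was -0.31 ± 0.29 with a 95% interval of -0.92 to 0.31. The SD was 0.075 at day 7 and 0.076 at day 30. The pooled SE also holds TAA day 7 replicate 1, at 1.92 against 0.33 and 0.33 on its mates. Of the 3 probe sets of Fkbp5, 1 was lower. Tsc22d3, the anti-inflammatory leucine zipper gene, was at -0.33 ± 0.14 (adjusted p = 0.187) and was at -0.45 after BSS. Zbtb16, a zinc finger transcription factor, was at -0.15 ± 0.16 (-0.046 without DEX day 30 replicate 1). Per1, a clock gene with a steroid response element, was at 0.00 ± 0.13, and its sign varied with the setting. The receptor itself, Nr3c1, was higher at day 30 on all arrays (-0.30, -0.26 and -0.10, then 0.36, 0.32 and 0.13), by 0.49 ± 0.14 (adjusted p = 0.0633), with 4 of 6 probe sets higher, and it passed without DEX day 30 replicate 3 (0.56). Sgk1, a kinase that regulates ion channels, was at 0.39 ± 0.11 without overlap (adjusted p = 0.0657). Txnip, an inhibitor of thioredoxin, was at -0.45 ± 0.12 (adjusted p = 0.0604), and its second probe set was at 0.14. The metallothioneins Mt1 (-0.83 ± 0.28) and Mt2 (-0.94 ± 0.38), which bind zinc and copper, did not pass. Without DEX day 30 replicate 3, 5 of the 31 passed, of which Nr3c1, Sgk1 and the mTOR inhibitor Ddit4 were higher and Mt1 and Cebpd lower. Among all 18193 genes, 512 were called higher and 762 lower in that fit.

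More synaptic genes were lower than higher. Of 19 members, 2 fell, where 2.04% of all genes fell, and 13 were lower, with a median of -0.32. The days did not overlap for 11 lower members and 1 higher one, against 18.9% and 7.82% of all genes. Syn1, which tethers synaptic vesicles, was at 0.48, 0.35 and 0.29 at day 7 and at -0.55, -0.24 and -0.05 at day 30 (-0.65 ± 0.15, adjusted p = 0.0329). Vamp2, the vesicle SNARE of neurons, was at 0.61, 0.92 and 0.25 and then at -0.23, 0.01 and -0.22 (-0.74 ± 0.19, adjusted p = 0.0448). After BSS these genes were at 0.00 and -0.12. Each was called in 1 of the 6 leave-one-out fits, where the differences ran from -0.77 to -0.52 for Syn1 and -0.91 to -0.58 for Vamp2. Of the neuronal cell type lists, 1 of 14 bipolar cell genes fell (Car8, a carbonic anhydrase-like protein, -0.73 ± 0.13, adjusted p = 0.0192) and 11 were lower, with a median of -0.16. Car8 was also lower after BSS (-0.39) and after TAA (-0.57). One of 17 ganglion cell genes fell, Rbfox3, the neuronal splicing factor known as NeuN (-0.73 ± 0.18, adjusted p = 0.0425), with 2 of 3 probe sets lower. The list's median of 0.02 was below 0 in 5 of the 6 leave-one-out fits, down to -0.13 without DEX day 30 replicate 2. None of 20 amacrine and horizontal cell genes passed (median -0.19); neuropeptide Y, Npy, was at -0.58 ± 0.16 and calretinin, Calb2, at -0.44 ± 0.13. Both of these passed without DEX day 30 replicate 3, at -0.76 and -0.53.

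Photoreceptor genes had medians near 0. None of the 21 rod and 13 cone genes passed, with medians of 0.05 and 0.02. The rod genes of smallest p were the phosphodiesterase subunit Pde6a, at -0.18, -0.23 and -0.31 at day 7 and at 0.19, 0.20 and 0.03 at day 30 (0.38 ± 0.10, adjusted p = 0.0528), and the outer segment microtubule gene Rp1 (0.40 ± 0.12, adjusted p = 0.0753). For these 2 rod genes the days did not overlap, and both passed without DEX day 30 replicate 3 (0.43 and 0.46). The cone transducin subunit Gnb3 was at -0.47 ± 0.15 (adjusted p = 0.0887) and passed without the same array (-0.58), and the potassium channel subunit Kcne2 was at 0.26 ± 0.16 with overlap (0.15 without DEX day 30 replicate 1).

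The crystallins varied more between arrays than between the days. The 14 crystallin genes, lens proteins of which some are also made by stressed retina, had medians of 0.01, -0.76 and -1.04 on the day 7 arrays and -0.89, -0.06 and 0.31 on the day 30 arrays, and none passed. Cryaa was at 0.14, -2.53 and -3.38 at day 7 and at -3.27, -0.31 and 0.98 at day 30, and Crygs followed the same arrays (-0.09, -3.06 and -3.28, then -3.35, 0.34 and 1.28). The high arrays were thus DEX day 7 replicate 1 and DEX day 30 replicates 2 and 3, and the differences of 1.06 ± 1.39 and 1.57 ± 1.45 turned their sign when arrays were weighted by quality (-0.50 and -0.09). Lens fibre genes other than crystallins had a median of 0.14 over 8 members, pigment epithelium genes 0.13 over 23 and genes of cornea, conjunctiva and iris 0.00 over 14, with 0 called in each. The lens fibre and pigment epithelium medians were 0.042 and 0.019 without DEX day 30 replicate 3, and without DEX day 7 replicate 2 the latter was 0.00056. The days did not overlap for 2 of the 8 lens fibre genes and 3 of the 14 genes of cornea, conjunctiva and iris, all higher at day 30, against 7.82% of all genes. The members of smallest p in these lists were Dnase2b (0.16 ± 0.14), Bfsp1 (0.41 ± 0.43), the melanosome transporter Oca2 (0.36 ± 0.16), the channel Trpm3 (-0.56 ± 0.25), the keratin Krt4 (0.41 ± 0.15) and Clca3a1 (0.42 ± 0.17). Of these, Dnase2b, Krt4 and Clca3a1 did not overlap between the days. Trpm3 was at -0.32 without DEX day 7 replicate 1. Of 4 erythrocyte genes none passed, with Epb42 at 0.30 ± 0.11 and Alas2 at -0.14 ± 0.14 (-0.031 without DEX day 7 replicate 3). The part of adhering lens or pigment epithelium in the other results was not tested.

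Heat shock and chaperone genes were the list with the most members that rose, 2 of 13, against 0.594% of all genes. Members that fell numbered 0, and the median was 0.18. Hspa1b, the inducible HSP70, was at -0.40, -0.30 and -0.43 at day 7 and at 0.69, 0.66 and -0.04 at day 30. It rose by 0.81 ± 0.18 (adjusted p = 0.0297), and its 3 probe sets all passed when every probe set was tested on its own. Hsp90aa1, the chaperone that holds the steroid receptor in its binding form, was at -0.20, -0.11 and -0.19 and then at 0.26, 0.39 and 0.12, and rose by 0.42 ± 0.11 (adjusted p = 0.0426). Of its 5 probe sets, 4 were higher. The 2 genes were at 0.16 and 0.12 after BSS. Replicate 3 was the lowest day 30 array in both, and without it 5 members were called higher: these 2, Hspa1a, the co-chaperone Hsph1 and Hspa5, the chaperone of the endoplasmic reticulum. In that fit 512 of 18193 genes were called higher.

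In the circadian list 2 of 19 genes fell, Dbp and Ciart, against 2.04% of all genes. The list as a whole had a median of 0.00, with 8 members higher and 11 lower. Dbp, a transcription factor driven by the clock, was at 0.21, 0.13 and 0.23 at day 7 and at -0.56, -0.54 and -0.18 at day 30 (-0.62 ± 0.14, adjusted p = 0.0310). Ciart, a repressor within the clock, was at 0.25, 0.25 and 0.14 and then at -0.25, -0.46 and -0.27 (-0.54 ± 0.14, adjusted p = 0.0467). After BSS these genes were at -0.14 and -0.35, and the time of day of dissection is not given in the sources used here. Without DEX day 30 replicate 3, Nr1d1 was also called lower (-0.50) and Rorb higher (0.53). The clock proteins bind the E-box CACGTG, which reads the same on both strands. Of 17 list members with a window, 5 held it (29.4%), against 7.71% of all genes and 13.1% of the genes that fell. Ciart was among them and Dbp was not. Ciart is shown because its window holds 3 copies, beginning at bases -116, -58 and -44.
Ciart, chr3:95882199-95882478, minus strand: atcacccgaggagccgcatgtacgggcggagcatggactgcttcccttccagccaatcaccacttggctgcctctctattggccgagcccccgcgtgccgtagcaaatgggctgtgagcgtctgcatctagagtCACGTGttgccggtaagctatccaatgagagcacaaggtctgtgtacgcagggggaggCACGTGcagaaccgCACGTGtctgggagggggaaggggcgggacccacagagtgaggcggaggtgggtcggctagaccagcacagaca

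Other cellular machinery showed few calls, where 0.594% of all genes rose and 2.04% fell. The cholesterol pathway had 1 riser among 16 genes, Idi1, the isomerase of isopentenyl diphosphate (0.67 ± 0.15, adjusted p = 0.0320), with a list median of -0.05. Among 19 cell cycle genes (median -0.03) the replication helicase subunit Mcm3 fell (-0.66 ± 0.15, adjusted p = 0.0326), and all 5 of its probe sets were lower. Mcm3 was also lower after BSS (-0.38) and after TAA (-0.21). Of 29 chromatin and splicing genes (median 0.04), the splicing activator Tra2a rose by 1.01 ± 0.26 (adjusted p = 0.0477), with -0.10 on DEX day 30 replicate 3 against 0.99 and 1.01 on its mates, and all 6 probe sets higher. Srsf2, another splicing factor, fell by 0.47 ± 0.12 (adjusted p = 0.0492) on the probe set kept, but only 2 of its 4 probe sets were lower and their mean was higher at day 30 (0.15). No member passed among 23 respiratory chain genes (median -0.08), 15 ribosomal protein genes (-0.03), 15 cell death genes (-0.17), 14 immediate early genes (0.03) and 20 inflammatory mediators (0.04). The members of smallest p were Ndufab1, the mitochondrial acyl carrier protein (0.97 ± 0.33), Uqcrq of complex III (-0.47 ± 0.16), Rpl7 (0.38 ± 0.20) and Rpl37 (-0.17 ± 0.12, and -0.10 without DEX day 7 replicate 2). In the remaining lists they were the death receptor Tnfrsf1a (-0.55 ± 0.14), the pro-apoptotic Bcl2l11 (-0.73 ± 0.20), the transcription factor Egr3 (1.02 ± 0.32), the antiproliferative Btg2 (-0.37 ± 0.12), the interleukin-1 receptor Il1r1 (-0.51 ± 0.15) and the chemokine Ccl5 (-0.49 ± 0.16). Egr3 was also higher over the same interval after BSS (0.92). After DEX the second probe set of Egr3 was at -0.12 and that of Il1r1 at 0.083. Ccl5 was at -0.30 without DEX day 30 replicate 2. Without DEX day 30 replicate 3, Ndufab1, Uqcrq, Tnfrsf1a, Bcl2l11, Egr3, Il1r1 and Ccl5 of these genes passed.

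The largest rises among genes that passed were found outside the lists. Lrp1, an endocytic receptor for lipoproteins and proteases, was at -0.70, -1.51 and 0.02 at day 7 and at 0.62, 1.16 and 0.61 at day 30, and rose by 1.53 ± 0.35 (2.88-fold, adjusted p = 0.0332). The day 7 arrays were widely spread, and the second of its probe sets was lower at day 30 (-0.32). Gigyf2, a repressor of translation, was at -0.52, -0.39 and -0.73 and then at 0.80, 0.76 and 0.14. It rose by 1.11 ± 0.20 (adjusted p = 0.0202), all 4 of its probe sets were higher and 2 passed on their own. Over the same interval it was at 0.04 after BSS and 0.70 after TAA. Arhgef15, a nucleotide exchange factor of endothelial cells, rose by 1.18 ± 0.25, and 2 of its 3 probe sets were lower. Rnpc3, a protein of the minor spliceosome, rose by 1.11 ± 0.24 on the probe set kept, with both probe sets higher. Syne3, which links the nuclear envelope to intermediate filaments, rose by 1.34 ± 0.30, from -0.25, -0.51 and -0.15 to 1.69, 1.35 and 0.06, so that replicate 3 of day 30 was again the lowest. The same order held for the vomeronasal receptor gene Vmn1r58 (1.49 ± 0.30), the galactosyltransferase B3galt2 (1.25 ± 0.32), Nat8f3 (1.13 ± 0.25) and the mitochondrial protein Chchd7 (1.06 ± 0.25), each of which was lower on day 30 replicate 3 than on its mates. B3galt2 was at 0.83 without DEX day 30 replicate 2. The second probe set of Nat8f3 was at -0.056. Of the 4 probe sets of Chchd7, 3 were higher and the lowest was at -0.13. Ntmt1, a methyltransferase of protein N termini, rose by 1.07 ± 0.19, and the other of its 2 probe sets was at -0.29.

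Of the genes of largest fall not described so far, Sspn, part of the dystrophin complex that anchors glial endfeet and muscle, was at 0.52, 0.44 and 0.10 at day 7 and at -0.55, -0.69 and -1.21 at day 30 (-1.17 ± 0.24, adjusted p = 0.0283). Sspn was also lower after BSS (-0.53) and after TAA (-0.21). Slc43a2, a transporter of neutral amino acids, was at 1.35, 1.01 and 0.85 and then at -0.46, 0.08 and 0.28 (-1.11 ± 0.23, adjusted p = 0.0286). All 3 of its probe sets were lower, and it was at 0.14 after BSS. Olfm2, a secreted olfactomedin protein, fell by 1.09 ± 0.23, from 0.89, 0.36 and 0.34 to -0.55, -0.78 and -0.36. Tmem176a, a membrane protein of antigen-presenting cells, fell by 1.09 ± 0.24 with 3 of 3 probe sets lower. Myo5b, a motor of recycling vesicles, and Ttll11, which adds glutamates to tubulin, fell by 1.01 ± 0.15 and 1.05 ± 0.19, and both were also lower after BSS (-0.75 and -0.53) and after TAA (-0.47 and -0.74). Without TAA day 7 replicate 2 Myo5b was at -0.28 after TAA. After DEX, 2 of 3 probe sets of Myo5b and 3 of 4 of Ttll11 were lower.

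The same interval was then compared between treatments. Between day 7 and day 30, 5 of 18193 genes fell and 0 rose after BSS (0.0275%) by limma, with 1420 (7.81%) under 0.05 before adjustment. After TAA 0 passed, with 2239 (12.3%) under 0.05 before adjustment. The arrays of the 2 days did not overlap for 22.8% of all genes after BSS and 12.6% after TAA, against 26.7% after DEX. The 5 genes after BSS were Col19a1 (-1.26), the immunoglobulin joining chain Jchain (-1.32), the transcription factor Foxp2 (-0.98), the gene Rhobtb3 (-1.12) and the unnamed clone gene 1700096K18Rik (-0.88). After dexamethasone the first 4 were at -1.07, -0.89, -0.59 and -0.62, and Col19a1, Jchain and Rhobtb3 passed there too. Foxp2 was above 0 as a mean of its probe sets (0.05). Of the 479 genes called after dexamethasone, 374 (78.1%) had the same sign after BSS and 338 (70.6%) after TAA, against 59.6% and 53.6% of all genes. These comparisons share no array, although all 18 arrays share the centring. Across all genes the differences after DEX and BSS correlated at 0.20, and those after DEX and TAA at 0.11, as a description, since genes are not independent. The median of the 371 genes that fell was -0.60 after DEX, -0.14 after BSS and -0.13 after TAA, and that of the 108 that rose was 0.67, 0.11 and 0.03. Without TAA day 7 replicate 2 the last of these was 0.087. The genes were selected by their difference after DEX, so larger medians there were fixed by the selection.

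Whether the change after dexamethasone differed from that after BSS was tested by the interaction. By limma 0 of 18193 genes passed, the smallest adjusted p was 0.283, and 1558 genes (8.56%) were under 0.05 before adjustment. With arrays weighted by quality 1728 passed. Gfap was at -1.79 after DEX and 0.31 ± 0.40 after BSS, a difference of -2.10 ± 0.57 (unadjusted p = 0.00172, adjusted p = 0.406). Sparc differed from BSS by -1.06 ± 0.24, Nfia by -1.19 ± 0.26, Tmem119 by -0.74 ± 0.18 and Slc25a5 by 0.88 ± 0.20, and none passed. In the gliosis list, 13 of 19 members were higher over time after BSS, where the median was 0.16. Stat3 (-0.26 ± 0.21) and Edn2 (-0.96 ± 0.87) were lower over time after BSS. The microglia and interferon lists had medians of 0.11 and 0.17 after BSS. After TAA the gliosis median was -0.83, Gfap was at -1.55 and Serpina3n at -2.40, but 1 array carried much of this. TAA day 7 replicate 2 had 2.11 for Gfap, against 0.77 and 0.01 on its mates, and without it the gliosis median was -0.32, Gfap was at -0.98 and Serpina3n at -1.68. The medians of the microglia and interferon lists after TAA were -0.08 and -0.31, and they turned to 0.26 and 0.11 without that array. The difference of DEX from TAA also had 0 genes that passed (smallest adjusted p = 0.110; 2524 with an unadjusted p under 0.05). Without DEX day 30 replicate 3 the interaction called 1 gene against BSS and 630 against TAA.

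**Figure D5:**
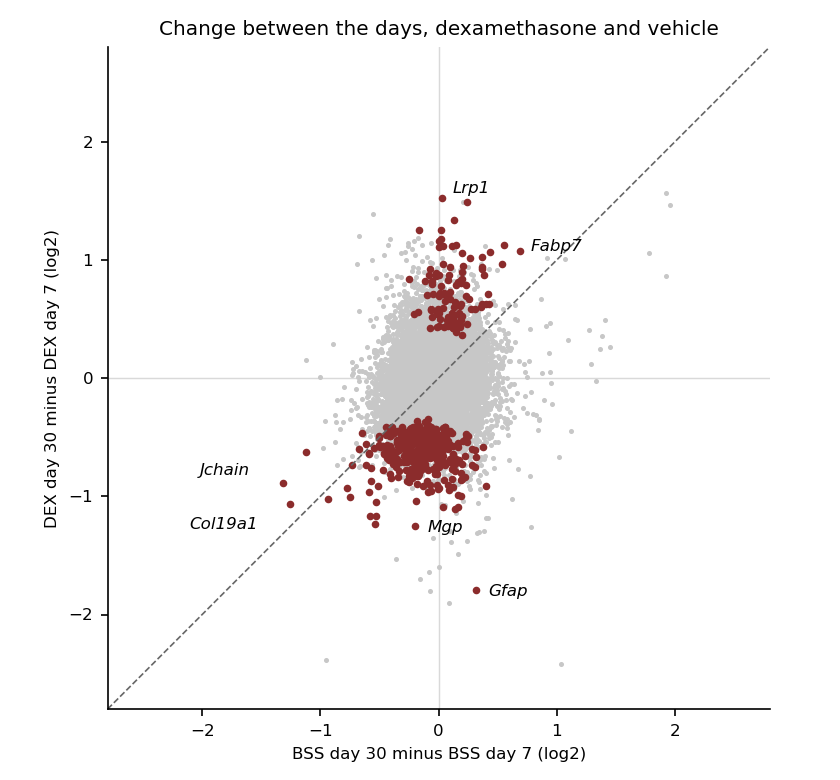
Difference between day 30 and day 7 (log2) after DEX against the same difference after BSS, 1 point per gene (18193), with the 479 genes called after DEX in red and a dashed line where both are equal. The called genes that fell after DEX (median -0.60) have a median of -0.14 after BSS, and Col19a1 and Jchain are lower over time in both. The called genes were selected by the difference after DEX, which fixes the larger median there.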

How the data were processed

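RNA of 18 retinas was hybridised to Affymetrix mouse arrays after 2-cycle labelling. The deposited log2 values come from RMA, per the submitters' processing notes, whose version and settings are not given in the sources used here. In the deposited table all 45101 probe sets are centred on their median over the 18 arrays, within 5e-07, so that only differences carry meaning; that the scale is log2 and rising with RNA follows from RMA and is not stated. Of the probe sets, 34945 name 1 gene, 932 several and 9160 none. Each of the 18193 genes is represented by its probe set with the widest interquartile range across all arrays.

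A linear model with the 6 groups was fitted to all 18 arrays with limma 3.58.1 in R 4.3.3 (residual degrees of freedom 12), with p-values adjusted by Benjamini-Hochberg over all genes and called at 0.05. In simulated data the same fit called 29.8% of genes changed by 0.5, 88.6% of those changed by 1 and 0.0556% of unchanged genes. There the random spread was drawn separately for every gene and array, so no simulated array stood apart from its group. Whether these rates hold for the real arrays, where a replicate did stand apart, was not tested. The number of arrays limits the precision. Named genes are the 12 of largest difference among calls in each direction and called list members (4 per list, or the 2 of smallest p where none was called), with Fkbp5, Tsc22d3, Per1, Zbtb16, Gfap, Nr3c1, Vegfa, Aqp4 and Kcnj10 in any case, 83 in all. Besides the genes called after BSS, 37 others were chosen after their values were seen. The members and the 31 lists were chosen with earlier results of these data known. Replicates are labelled biological, and no batch is given. Alternatives were single arrays left out, the 6 DEX arrays alone, other summaries, scalings and filters, array weights and a replicate block.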

Additional observations from a re-analysis of the deposited data

How the results depend on the processing

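The number of calls between day 30 and day 7 after dexamethasone moved with the processing. With a gene's probe sets averaged, 476 of the 479 genes kept their sign; most other alternatives use the same kept values, whose groups do not overlap, and say little about direction. The fit on the 6 DEX arrays alone called 89 genes, 6 higher and 83 lower. Quantile normalization called 283 (198 lower) and leaving out the genes of lower interquartile range 316 (67 higher). Testing every probe set on its own called 172 higher. Array weights called 4158 (1592 higher, 2566 lower). Leaving out 1 DEX array gave 1 to 1274 calls, 0 to 512 of them higher and 1 to 762 lower. Leaving out TAA day 30 replicate 2, an alternative chosen after seeing the data, gave 1046 calls, 217 higher and 829 lower. Nothing in the labels ties the replicate numbers across days. Arrays of the same number had correlated deviations of 0.061, 0.22 and 0.24, and those of other numbers -0.28 to 0.070, with DEX day 7 replicate 1 closest to DEX day 30 replicate 2; the replicate block called 504 genes. The change after BSS, 5 calls as reported, had 57 with quantile normalization, 527 with array weights, and 4 to 9 with 1 array left out. The change after TAA had 1 with quantile normalization, 71 with array weights and 7 with the replicate block. The difference from BSS had 1728 with array weights and 0 to 1 with 1 array left out, and the difference from TAA had 817 with array weights, 1 with the replicate block and 0 to 630 with 1 array left out. The cause of these shifts was not tested. Of the named genes, the sign turned for Srsf2 (0.15), Vegfa (-0.060) and Foxp2 (0.047) as means of their probe sets, for Per1 with array medians subtracted (0.019), quantile normalization (0.042) and array weights (0.080), and for Crygs (-0.095) and Cryaa (-0.50) with array weights. With 1 array left out, Per1 ran from -0.057 to 0.10, Vegfa from -0.053 to 0.097, Kcnj10 from -0.22 to 0.023 and Steap4 from -1.14 to 0.19. Of the list medians, 424 values stayed within the spread between replicates and 41 moved by more. The ganglion cell, cone, inflammatory, clock, cell cycle and chromatin medians took both signs over the settings. So did those of the rod, crystallin, cornea, immediate early, glucocorticoid, ribosomal protein and erythrocyte lists. Leaving out TAA day 7 replicate 2 was also chosen after seeing the data.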

Other observations

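Some genes on no list fell between day 7 and day 30 after dexamethasone; those given here were chosen after their values were seen, and stand for no group. Aldh1l1, the folate enzyme used as an astrocyte marker, was at 0.37, 0.18 and 0.22 at day 7 and at -0.64, -0.65 and -0.64 at day 30 (-0.90 ± 0.23), and here DEX day 30 replicate 3 went with its mates. It was at -0.07 after BSS and -0.95 after TAA. Its call was lost in all 6 leave-one-out fits, which kept it between -0.94 and -0.84. Fxyd1, a regulator of the sodium pump, fell by 0.95 ± 0.17, and the calcium sensor S100a1 by 0.86 ± 0.17. Tspo, the mitochondrial protein used to image reactive glia, fell by 0.91 ± 0.18 with 3 of 3 probe sets lower, and Igfbp2, a binding protein of insulin-like growth factors, by 0.83 ± 0.16. The adenylyl cyclase Adcy1 fell by 0.93 ± 0.15 with both probe sets called, and was also lower after BSS (-0.77).

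Among genes that rose, also chosen after their values were seen, Slc25a5, the exchanger of ADP and ATP in mitochondria, was at -0.70, -0.32 and -0.69 at day 7 and at 0.12, 0.61 and 0.19 at day 30 (0.88 ± 0.14), with all 8 probe sets higher. Ppp1cb, a catalytic subunit of protein phosphatase 1, rose by 0.89 ± 0.15 with all 4 probe sets higher, and Hadhb, an enzyme of fatty acid oxidation, by 0.78 ± 0.16. Slc25a5 and Ppp1cb were called in 3 of the 6 leave-one-out fits and Hadhb in 1.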
